A study of Mus musculus with 8 samples.

Results

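The genes described are the signals that call neutrophils into a tissue and the receptors that answer them: the chemokine genes Cxcl1, Cxcl2, Cxcl3, Cxcl5 and Ppbp, the growth factor gene Csf3, and the receptor genes Cxcr2 and Csf3r. They were chosen by symbol, and all 8 were present among the 32285 genes of each count matrix. Viability-sorted cells of the mouse tongue epithelium were profiled in 8 droplet libraries, 2 per genotype, collected 15 days after induction from littermates 8 to 16 weeks old. Control mice (N) were Krt14-CreERT/LSL-rtTA, E mice added tetON_E6-E7 (oncogenes of human papillomavirus), Y mice added tetON_YAP1S127A (a YAP protein with a mutation that keeps it active), and EY mice carried both. According to the study's methods every mouse, controls included, also carried a tetON_H2B-GFP reporter, received tamoxifen in the tongue and ate a doxycycline diet. The transgenes were therefore switched on in KRT14-positive basal epithelial cells, and any difference in myeloid cells was measured in cells in which the Krt14 promoter was not meant to act. Libraries are named by group and number (N1, N2 and so on). The labels of N2 carry more than 1 animal number, so N2 may pool animals, and each library was counted as 1 replicate.

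Neutrophils leave the blood along gradients of chemokines. Cxcl1, Cxcl2, Cxcl3, Cxcl5 and Ppbp encode chemokines of the CXC family that bind CXCR2, the main chemokine receptor of mouse neutrophils. Csf3 encodes granulocyte colony-stimulating factor (G-CSF), which drives the production of neutrophils in the bone marrow and their release, and Csf3r encodes its receptor. Epithelium, macrophages and neutrophils themselves can make these chemokines when stimulated by microbial products, IL-1, TNF or IL-17, largely through NF-kappaB. Platelets are the classical source of the Ppbp product.

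The 5 chemokine genes lie on the forward strand of chromosome 5 (GRCm38, GENCODE vM21 coordinates): Cxcl5 at chr5:90759360-90761624, Ppbp at chr5:90768518-90770063, Cxcl3 at chr5:90786103-90789600, Cxcl1 at chr5:90891241-90893115 and Cxcl2 at chr5:90903871-90905938. Csf3 is at chr11:98701263-98703629, Cxcr2 at chr1:74153989-74161246 and Csf3r at chr4:126024550-126044440, all on the forward strand. RefSeq promoter windows of 300 bases (GRCm38.p6) were matched for 6 of the 8 genes. An NF-kappaB-type motif, the letters GGGA, then any base, then TTTCC, read on both strands, was found in 3 of them, those of Cxcl1, Cxcl2 and Cxcl3, and in 104 of all 27025 promoter windows (0.385%). It began 71 bases before the RefSeq start of Cxcl1, 97 before that of Cxcl2 and 73 before that of Cxcl3. These RefSeq starts differ from the GENCODE starts given above. The stretch from 120 to 31 bases before the RefSeq start is shown for these 3 genes and for Ppbp, which lacks the motif. Capitals mark the motif.

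Cxcl1, chr5:90891125-90891214, forward strand: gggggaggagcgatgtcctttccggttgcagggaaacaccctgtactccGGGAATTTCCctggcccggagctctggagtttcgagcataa
Cxcl2, chr5:90903779-90903868, forward strand: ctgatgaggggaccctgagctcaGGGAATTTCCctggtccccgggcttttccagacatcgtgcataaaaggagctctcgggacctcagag
Cxcl3, chr5:90785981-90786070, forward strand: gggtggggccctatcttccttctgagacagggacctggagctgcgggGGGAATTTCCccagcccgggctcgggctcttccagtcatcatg
Ppbp, chr5:90768398-90768487, forward strand: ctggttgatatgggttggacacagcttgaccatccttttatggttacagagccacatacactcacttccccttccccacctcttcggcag

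The core of the TEAD-type motif that YAP complexes use, GGAATG on both strands, was found in the windows of Cxcl3, Ppbp and Cxcr2 and in 14.6% of all windows. The AP-1-type motif TGANTCA was found in that of Ppbp and in 7.93% of all. These matches describe letters in a window and no binding was measured.

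The matrices held 42550 cells, of which 25199 passed the limits on genes, molecules and mitochondrial content that the study used, with 46483469 to 102427359 molecules (unique molecular identifiers, UMIs) per library before filtering. Cells were clustered without the 8 genes and named from marker lists. Epithelial-like cells numbered 2924 and 322 in N, 3478 and 491 in E, 1182 and 982 in Y, and 159 and 2040 in EY, so EY1 rested on few of them. All 11 epithelial markers were detected in the epithelial-like cells of every library. A CPM below is the number of UMIs of a gene per 1000000 UMIs of all cells of a class in a library. Yap1, which also counts the YAP transgene as far as its reads map to the gene, stood at 35.3 and 39.7 CPM in epithelial-like cells of N, 32.3 and 48.0 in E, 221 and 472 in Y, and 233 and 170 in EY, as the labels said. No feature measured E6 or E7.

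Each gene had its own distribution over cell classes, as the map of levels by class and library shows. Cxcl1, Cxcl2, Cxcl3 and Csf3 were held mainly by monocyte- or macrophage-like cells, with 54.3, 58.8, 50.7 and 72.7% of the UMIs of all kept cells. Neutrophil-like cells came second for Cxcl2 (37.6%) and Cxcl3 (39.3%), and epithelial-like cells for Cxcl1 (30.1%) and Csf3 (13.2%). Cxcl5 and Ppbp were instead held by a small class of gland-like cells, 443 cells named from Krt7, Krt8, Krt18, Krt19 and secretory markers, at 77.4 and 81.7% of UMIs. The receptor genes lay in neutrophil-like cells, with 77.4% of Cxcr2 UMIs and 65.3% of Csf3r UMIs, followed by monocyte- or macrophage-like cells with 19.8 and 31.7%. These pooled shares follow the numbers of cells in each library. The mean over libraries, in which each library counts the same, kept the leading class for 6 genes, gave epithelial-like cells 40.7% ± 39.8 (SD, n = 8) and gland-like cells 35.6% of Ppbp, and put Csf3r at 44.9% ± 22.0 in monocyte- or macrophage-like and 44.4% in neutrophil-like cells.

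**Figure D1:**
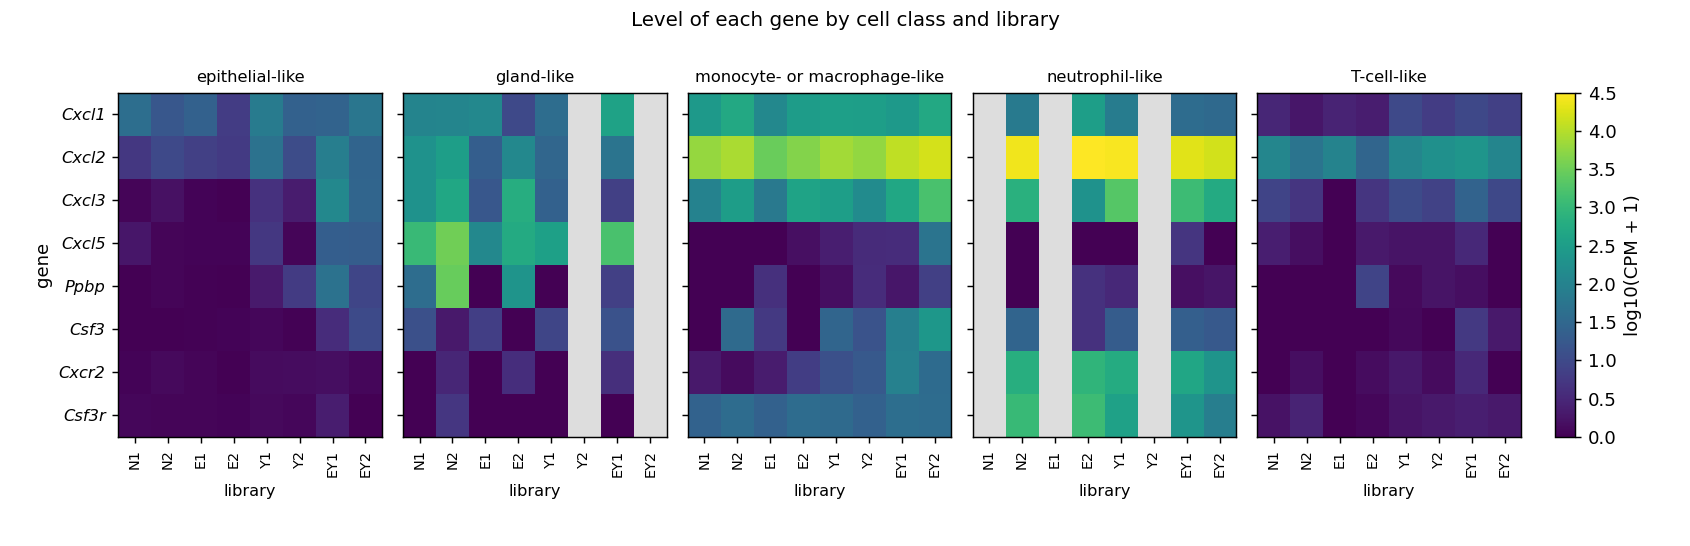
Level of each of the 8 genes, as log10(CPM + 1), in 5 cell classes (panels) and 8 libraries (columns); grey marks a class with under 20 cells in a library. The bright Cxcl2 row in monocyte- or macrophage-like and neutrophil-like cells, the Cxcl5 row in gland-like cells and the receptor rows in neutrophil-like cells stand out. In epithelial-like cells Cxcl3, Cxcl5, Ppbp and Csf3 are highest in EY. Of these, only Cxcl3 and Ppbp lie above N and E in both Y libraries.

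In epithelial-like cells the comparison of EY with N asked whether the combined transgenes changed the attractants that the epithelium itself transcribes. Of the 6 attractant genes that passed the filter on low counts, 5 rose: Cxcl3, Cxcl5, Ppbp, Csf3 and Cxcl2, the last at a level below that of T-cell-like cells. In the same comparison 25.3% of all 13270 genes tested were called and 12% were higher. Csf3, Ppbp, Cxcl3 and Cxcl5, low or absent in N and E, passed the filter through the groups in which they were high. The count of 5 of 6 is therefore a description, and the folds and adjusted p-values of these genes below carry the same limit. Cxcr2 and Csf3r did not pass the filter, with 38 and 33 UMIs in all epithelial-like cells.

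Cxcl3 was nearly absent from control epithelium, at 0.165 and 0.588 CPM in N and 0.106 and 0 in E. It reached 3.31 and 1.24 CPM in Y and 123 and 28.7 in EY. The groups N and E did not overlap Y, and Y did not overlap EY. How many of all genes were without overlap was not counted, for this gene or for any gene and class below. Such statements only describe the libraries. The log2 fold change of EY over N was 8.24 ± 1.07 (SE; adjusted p = 0.0056), and that of EY over Y was 5.02 ± 0.82 (adjusted p = 0.0406), in a comparison that called 2.61% of all genes, 1.1% higher.

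Csf3 gave 0 UMIs in both N libraries, 2 and 1 in E, 5 and 1 in Y, and 6 and 349 in EY. In CPM these were 0 and 0 in N, 0.0425 and 0.0919 in E, 0.223 and 0.0515 in Y, and 2.66 and 9.33 in EY, so both EY libraries lay above the other 6, and Y and E overlapped. Almost all EY UMIs were those of EY2. Taking 3 UMIs over the N group as the floor, the observed level of EY1 was 43.6 times that floor and that of EY2 153 times. These 2 values do not include the counting error of EY, where EY1 had 6 UMIs, and are not lower bounds. EY1 stood at 18.5 times the pooled Y level (95% interval 4.95 to 69.3, counting error only) and EY2 at 65 times (29.6 to 178). The tests called the rise over N (adjusted p = 0.0065) and over Y (log2 fold change 5.55 ± 0.83, adjusted p = 0.0406), and Csf3 was the only member with a call for the E6-E7 effect, the fold across both backgrounds (5.44 ± 0.72, adjusted p = 0.0231, in a comparison that called 0.512% of genes, 0.49% higher). The call over N was lost without EY2 and without N1, and the E6-E7 call when any of 5 libraries was left out and under 5 of the other settings.

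Ppbp gave 0 and 1 UMIs in N, 2 and 0 in E, 25 and 97 in Y, and 109 and 290 in EY. The 4 libraries with the YAP transgene held 1.12, 4.997, 48.3 and 7.75 CPM, all above the highest of the other 4, which was 0.147. The YAP transgene effect, estimated over all 8 libraries with E6-E7 as the second term, was 8.86 ± 1.19 on the log2 scale (adjusted p = 0.0034). It was among 4 members called for that effect, where 14.5% of all genes were called and 7.89% were higher, the others being Cxcl3 (7.30 ± 1.35, adjusted p = 0.0117), Csf3 (6.77 ± 0.79, adjusted p = 0.0019) and Cxcl2 (2.79 ± 0.60, adjusted p = 0.0197). Fitted folds of Ppbp and Csf3 rest on groups with almost no UMIs and depend on the prior count. In Y2, 75 of the 97 Ppbp UMIs lay in 1 cell.

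Cxcl5, whose product is known as an epithelial chemokine, stood at 0.872 and 0.147 CPM in N, 0.128 and 0.0919 in E, 4.33 and 0.155 in Y, and 21.3 and 20.1 in EY. Both EY libraries lay above all others, and Y2 lay within the range of N. EY exceeded N by 4.96 ± 1.14 on the log2 scale (adjusted p = 0.0213), while the difference between EY and Y (3.20 ± 0.99, adjusted p = 0.103) and the YAP transgene effect (4.18 ± 1.31, adjusted p = 0.0615) missed the threshold. Of the 97 Cxcl5 UMIs in Y1, 92 came from 1 cell, whereas those of EY were spread over 15 cells in EY1 and 97 in EY2.

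Cxcl1 was the one attractant that control epithelium held in quantity. It stood at 41.6 and 15.6 CPM in N, 23.9 and 5.42 in E, 72.4 and 23.9 in Y, and 25.7 and 56.5 in EY, and the groups overlapped. Neither EY against N (0.58 ± 0.78, adjusted p = 0.603) nor the YAP transgene effect (1.16 ± 0.55, adjusted p = 0.168) passed, and an interval of about 2 SE leaves room for a change either way in EY against N.

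Cxcl2 stood at 4.31 and 8.82 CPM in N, 6.04 and 4.78 in E, 48.1 and 10.0 in Y, and 83.3 and 26.7 in EY, with no overlap between the libraries with and without the YAP transgene, and EY exceeded N by 3.09 ± 0.86 (adjusted p = 0.0372). T-cell-like cells, which are not a usual source of this chemokine, held 117 and 53.6 CPM in N, 104 and 28.5 in E, 116 and 183 in Y, and 220 and 110 in EY, above epithelial-like cells in all 8 libraries. After every cell was thinned to 2000 UMIs, the share of epithelial-like cells with a Cxcl2 UMI was below that of T-cell-like cells in all 8 (25.9 against 28.1% in EY1). Median UMIs before thinning were 12253 to 23632 in epithelial-like and 2912.5 to 7785 in T-cell-like cells. Exact 95% intervals of both shares were apart in 6 libraries, all but E2 and EY1. Counted per cell without thinning, 100 epithelial-like cells of EY held 118 and 49 Cxcl2 UMIs and 100 T-cell-like cells 169 and 42.9, and epithelial-like cells were above in Y1 and EY2 and below in the other 6. Free RNA makes up a smaller part of the UMIs of a cell rich in RNA, so a level under that of T-cell-like cells does not settle the source, and the part of free RNA in the Cxcl2 difference was not tested.

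**Figure D2:**
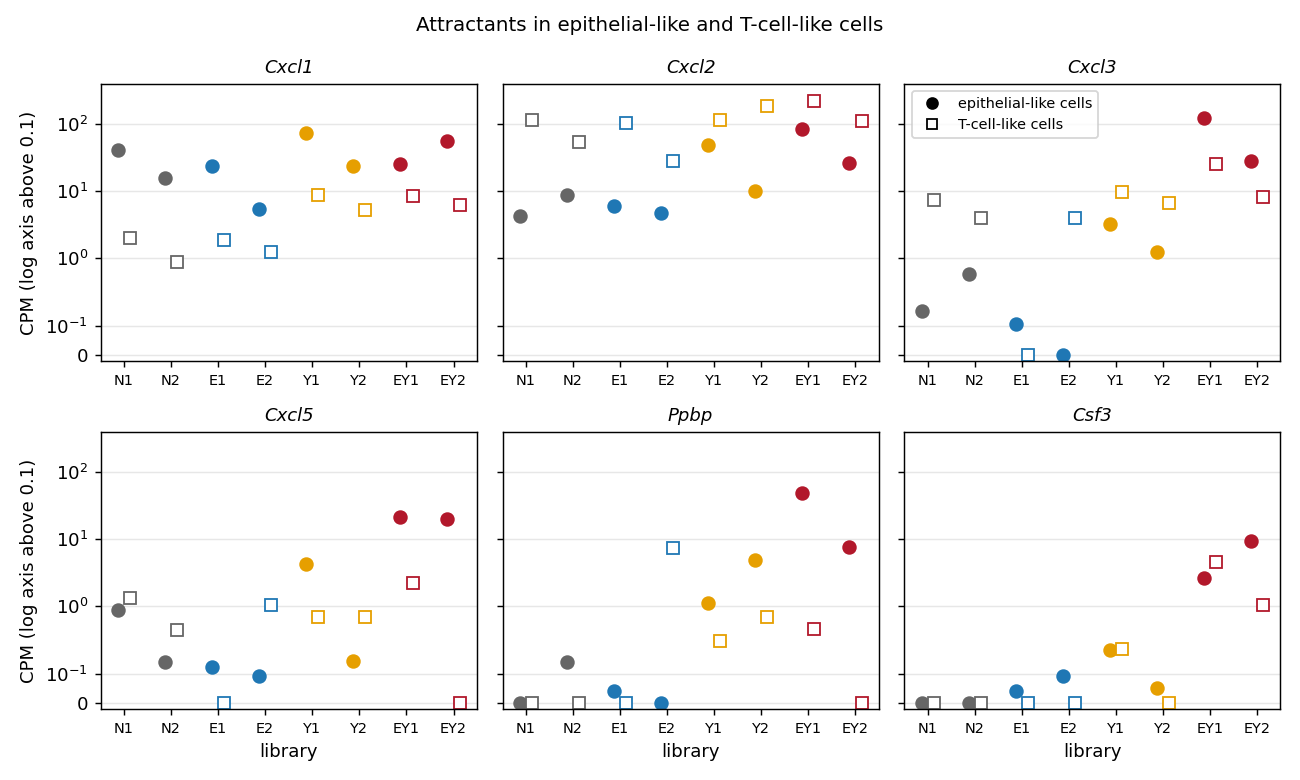
CPM of the 6 attractants in epithelial-like (filled circles) and T-cell-like cells (open squares) of each library, on an axis that is logarithmic above 0.1; each point is 1 library. Cxcl1 lies above the T-cell-like points in every library, Cxcl2 below them in every library, and Cxcl3, Cxcl5, Ppbp and Csf3 reach their highest epithelial values in EY.

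Of the other attractants, Cxcl1 lay above T-cell-like cells in all 8 libraries by share of thinned cells, at 6.67 and 1.86% in N, 3.08 and 0.611% in E, 6.44 and 3.26% in Y and 3.16 and 6.81% in EY, and exact 95% intervals were apart in 5. Cxcl3 exceeded it in both EY libraries and no others (13.3 against 6.32% in EY1 and 3.53 against 0.816% in EY2). Per 100 cells without thinning, Cxcl3 stood at 175 UMIs against 19.9 in T-cell-like cells of EY1 and 52.5 against 3.24 in EY2, but at 6.26 against 6.15 in Y1 and 2.44 against 3.06 in Y2, so in N, E and Y the epithelial-like cells were not set apart from T-cell-like cells by this gene. Ppbp exceeded it in the 4 libraries with the YAP transgene, at 0.169 and 0.306% in Y and 3.16 and 1.18% in EY. For Cxcl5 the share in epithelial-like cells was 4.43% in EY1 and 1.42% in EY2, against 0.351% of T-cell-like cells in EY1 and none of 245 in EY2 (exact 95% upper bound 1.49%). For Csf3 the shares were 1.27 and 0.784% against 1.05 and 0.408%, too close to be told apart at this depth. The 6 Csf3 UMIs of EY1 came to 3.77 per 100 epithelial-like cells, beside 3.48 per 100 T-cell-like cells, where 5 of 10 UMIs lay in 1 cell, so the excess of Csf3 over T-cell-like cells rested on EY2 (17.1 against 0.405). For every gene but Cxcl1 and Cxcl2 the 95% intervals of both shares overlapped in all 8 libraries. Compared over libraries by an exact two-sided permutation test, 4 with the YAP transgene against 4 without, the share of thinned epithelial-like cells with a UMI was higher by 1.2 percentage points for Ppbp and by 8.46 for Cxcl2 (p = 0.0286 for each, the smallest p that 70 labellings allow) and by 4.38 for Cxcl3 (p = 0.0571). None of the 8 genes passed after correction over the genes compared.

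Within the epithelial-like class, Cxcl5, Ppbp and Csf3 lay almost wholly in 1 cluster, as did the Cxcl3 of EY, whereas Cxcl1 and Cxcl2 were spread over the class. The cluster was led by Crct1, Cnfn, Krt17 and Klk10, genes of the cornified envelope, stressed keratinocytes and the epidermal kallikrein family, and its cells numbered 0 and 3 in N, 24 and 0 in E, 125 and 184 in Y, and 115 and 1968 in EY. In Y and EY together it held 54.8% of epithelial-like cells and 99.9% of their Cxcl5 UMIs, 99.8% of Ppbp, 99.2% of Csf3 and 97% of Cxcl3, pooled values in which EY2 weighs most. By library, the cluster made up 10.6 and 18.7% of epithelial-like cells in Y and 72.3 and 96.5% in EY, and held 50 and 91.7% of Cxcl3 UMIs in Y and 98.9 and 99.9% in EY. It held 2 of the 5 Csf3 UMIs of Y1 and all of those in Y2 and EY, and 96 to 100% of Cxcl5 and Ppbp UMIs in each of the 4. For Cxcl1 the share was 43.1 and 49.6% in Y and 60.3 and 99.4% in EY, and for Cxcl2 it was 20.3 and 45.9% in Y and 68.6 and 98.9% in EY. A comparison of EY with N in this class therefore set different clusters against each other, and the change in the makeup of the class and a change within cells cannot be told apart. The 24 cells of E1 in the cluster held 0 UMIs of Cxcl3, Cxcl5, Ppbp and Csf3, and 41 of Cxcl1.

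Inside the cluster, where Y and EY could be set side by side, Cxcl3 stood at 18.3 and 6.07 CPM in Y and 217 and 29.3 in EY. Csf3 stood at 0.99 and 0.276 CPM in Y and 4.73 and 9.54 in EY, from 2, 1, 6 and 349 UMIs. Neither gene overlapped, but no test was made inside the cluster. With 2 libraries against 2, an exact permutation test cannot give a p under 0.333. The share of all genes without overlap was not counted. Ppbp overlapped, at 11.9 and 26.8 CPM in Y and 85.9 and 7.93 in EY, and so did Cxcl5, at 48.0 and 0.827 in Y and 37.9 and 20.6 in EY. Outside the cluster, the epithelial-like cells of Y and EY held between 0 and 1.22 CPM of Cxcl5, Ppbp and Csf3, and 1.82, 0.127, 3.04 and 1.22 CPM of Cxcl3 in Y1, Y2, EY1 and EY2. Few cells carried most UMIs: in EY2, 34 of 2040 epithelial-like cells held 5 or more Cxcl5 UMIs each and together 86.2% of them, and 19 cells held 75.1% of the Csf3 UMIs.

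**Figure D3:**
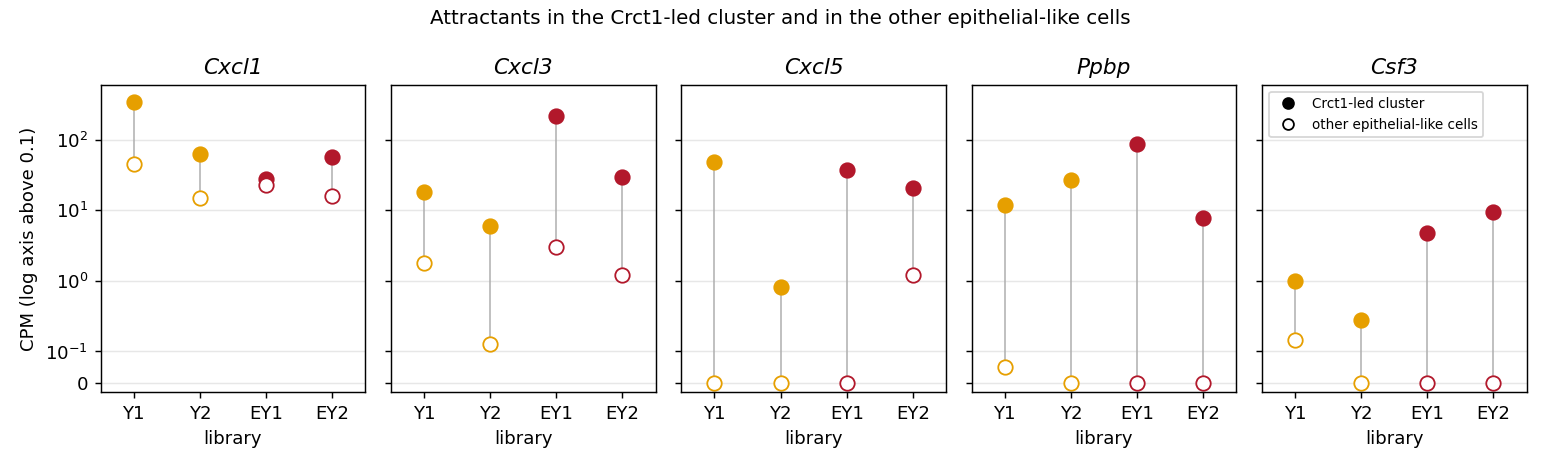
CPM of 5 attractants in the Crct1-led cluster (filled) and in all other epithelial-like cells (open) of the 4 libraries with the YAP transgene, on an axis that is logarithmic above 0.1; lines join both values of a library. For Cxcl5, Ppbp and Csf3 the other cells lie at or near 0, and for Cxcl1 in EY1 both values nearly meet.

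Several attractants were found in the same cells, but not all. Among 2198 thinned epithelial-like cells of EY, Cxcl3 was found in 54.4% of the 46 cells with Cxcl5 and in 2.51% of the others, in 42.3% of the 26 cells with Ppbp and 3.13% of the others, and in 28.6% of the 21 cells with Csf3 and 3.35% of the others. Cxcl1 was found in 34.8% of the Cxcl5 cells and 6.69% of the others, but in 7.69% of the Ppbp cells and 7.27% of the others. Cxcl2 was found in 19.6% of the Cxcl5 cells and 5.53% of the others. These shares describe cells of 2 libraries, are not tested, and cover cells of unlike clusters.

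The summed marker lists of some other classes moved along with the epithelial rise. A sum does not tell which of its genes rose, and the neutrophil list includes S100a8 and S100a9. The summed level of 10 neutrophil markers in epithelial-like cells was 12.03 and 39.4 CPM in N, 50.1 and 23.1 in E, 121 and 68.7 in Y, and 1168 and 367 in EY, with all 10 detected in EY. In T-cell-like cells the same sum was 87.3 to 184 CPM in N and E, 259 to 396 in Y and 1845 to 1901 in EY. The sum of 12 monocyte or macrophage markers in epithelial-like cells went the other way, at 155 to 233 CPM in N and E and 54.8 to 99.7 in Y and EY, and that of 6 platelet markers stayed between 4.87 and 12.4. Gland markers stood at 16.7 to 55.2 CPM in N, E and Y and at 392 and 161 in EY. Their part in the result was not tested. When epithelial-like cells with a UMI of Ptprc, Tyrobp, Fcer1g or Lyz2 were left out, EY against N called 5 members. The share of all genes called in that setting is not given here, and the limit of the filter on low counts given above holds for this count too. Leaving out these cells does not remove free RNA from the others.

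Y alone and E alone passed for no member by edgeR. Y against N, which called 1.36% of genes (1.17% higher), had 4 members at an unadjusted p under 0.05 (Ppbp, Cxcl3, Cxcl2 and Csf3, with adjusted p from 0.134 to 0.333), and DESeq2 called none. E against N, which called 0.339% (0.332% higher), had none at that level, with log2 fold changes of -1.02 ± 0.78 for Cxcl1 and -0.27 ± 0.84 for Cxcl2. EY exceeded E for Cxcl2, Cxcl3, Cxcl5, Ppbp and Csf3 (22.9% of genes called, 11.1% higher). The interaction term, the departure of EY from the added log2 effects of Y and E, called 0 of the members and 0% of all genes by edgeR, with Cxcl3 (6.55 ± 1.94) and Cxcl5 (5.72 ± 1.77) at an unadjusted p under 0.05 and an adjusted p of 0.277 and 0.284. DESeq2 called 1 member, Cxcl3, and its share of all genes called is not given here.

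The count of 5 in EY against N rested on single libraries. It was 0 without N1 and 3 without N2 (Csf3, Cxcl3 and Ppbp), and it was 2 without EY2 (Cxcl3 and Ppbp). Adding the gland-like and unnamed clusters of the epithelial branch gave 1 (Csf3), and cells gated by keratin content alone gave 2. The shares of all genes called in the settings of this paragraph are not given here. The count of 4 for the YAP transgene effect was 0 with the gland-like and unnamed clusters added, 1 with the keratin gate and 2 without E1 (Csf3 and Ppbp).

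Gland-like cells held Cxcl5 at levels above every other class in N, E, Y1 and EY. They held 1126 and 3298 CPM in N, 123 and 573 in E, 353 in Y1, and 1632 in EY1, with 20 to 160 cells in each of these 6 libraries, and no order of the genotypes was apparent. The UMIs came from part of the cells, 26 of 64 in N2, 22 of 105 in N1 and 5 of 54 in Y1, where 1 cell held 187 of 225. Ppbp was patchier, at 39.2 and 2830 CPM in N and 0 and 216 in E, and 8 of the 64 cells of N2 held all of its 2695 UMIs. In EY2, with only 18 gland-like cells, Csf3 reached 76 UMIs (567 CPM), 75 of them in 1 cell, while the libraries with 20 or more such cells stayed at or below 12.5 CPM. No test was made in this class, which had under 20 cells in Y2 and EY2.

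Monocyte- or macrophage-like cells held high Cxcl2 in all genotypes and had more Cxcr2 in EY. Cxcl2 stood at 6173 and 8615 CPM in N, 2985 and 4660 in E, 7599 and 5818 in Y, and 11812 and 16519 in EY, with both EY libraries above the other 6. EY exceeded N by 1.31 ± 0.31 on the log2 scale, which missed the threshold (adjusted p = 0.0628), and exceeded E by 2.32 ± 0.32 (adjusted p = 0.0201, in a comparison that called 4.57% of genes, 2.96% higher). Cxcl1, at 272 and 509 CPM in N and 272 and 528 in EY, overlapped throughout.

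Cxcr2 in these cells stood at 0.996 and 0.352 CPM in N, 1.23 and 5.53 in E, 11.7 and 17.2 in Y, and 92.6 and 37.2 in EY. It rose without overlap from N and E to Y and to EY, but the share of all genes doing so was not counted. Cxcr2 gave 1 UMI in each N library and 3 and 11 in E. It passed the filter through Y and EY, where it was high, so its calls are a description. It was the 1 member of 6 called in EY against N (7.27 ± 0.90, adjusted p = 0.0258, where 3.6% of genes were called and 2.4% were higher) and for the YAP transgene effect (4.76 ± 0.53, adjusted p = 0.0218, where 0.629% were called and 0.54% were higher). Y against N called none of the 6 (0.0393% of genes called, 0.0295% higher; Cxcr2 at an unadjusted p under 0.05), nor did E against N (0.00982%, higher in each case; Cxcl2 at an unadjusted p under 0.05, in the lower direction) or EY against Y (0.0295%, all higher; 5 members at an unadjusted p under 0.05), all by edgeR. Summed neutrophil markers in the same cells were 140 to 444 CPM in N and E, 4261 and 962 in Y, and 35151 and 30558 in EY, and their part in the result was not tested. Csf3r did not pass, at 24.9 and 38.1 CPM in N and 40.5 and 37.6 in EY (0.64 ± 0.32, adjusted p = 0.276). The Cxcr2 call against N was lost without EY1, without N1 or without N2, and that for the YAP transgene effect without E1, without E2 or without N1.

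Csf3 in monocyte- or macrophage-like cells stood at 0 and 35.2 CPM in N, 4.52 and 0 in E, 28.9 and 13.04 in Y, and 88.3 and 244 in EY. Of the 100 UMIs of N2, 92 came from 1 cell, while those of EY were spread over 86 and 98 cells. EY exceeded E (6.50 ± 1.36, adjusted p = 0.0416, in the comparison that called 4.57% of genes, 2.96% higher). That fold rests on 11 and 0 UMIs in E. The difference of EY from N missed the threshold (3.34 ± 1.06, adjusted p = 0.119). Cxcl3 ran from 64.6 to 406 CPM in N and E to 480 and 1621 in EY, against 328 and 150 in Y (EY against N 2.67 ± 0.99, adjusted p = 0.164).

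As in the epithelium, 1 cluster of the class carried most of this signal over Y and EY together. It was led by Saa3, Chil3, Thbs1 and Nos2, genes of acute-phase and inflammatory macrophages, and held 114 and 10 cells in Y and 399 and 263 in EY but 1 to 3 in each N and E library. In Y and EY it made up 27.1% of the class and held 94.6% of Csf3, 85.5% of Cxcl3, 81.2% of Cxcr2, 78.6% of Cxcl5 and 46.7% of Cxcl2 UMIs, with 35.3% of Csf3r and 35.2% of Cxcl1. These shares pool 4 libraries. By library the cluster held 42.7 and 0% of Cxcr2 in Y and 96.5 and 81.5% in EY. The C1qa-led cluster described below held 50.6 and 95.9% of Cxcr2 in Y. For Cxcl5 the Saa3-led share was 9.52 and 0% in Y and 68 and 98.5% in EY. For Cxcl3 it was 76.1 and 47.3% in Y and 91 and 97.4% in EY. Cxcl3 was itself among the leading genes of the Saa3-led cluster, although it was not used for clustering. The contrast with the larger C1qa-led cluster of resident-type macrophages was seen within each library: Csf3 stood at 308 against 2.91 CPM in Y1, 138 against 9.72 in EY1 and 442 against 3.91 in EY2. Cxcl2 differed less, at 20440 against 6541, 13740 against 8879 and 22450 against 9801 CPM in the same libraries. The C1qa-led cluster held Cxcl2 at 3686 to 9801 CPM and Csf3r at 24.6 to 39.1 CPM over all 8 libraries.

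**Figure D4:**
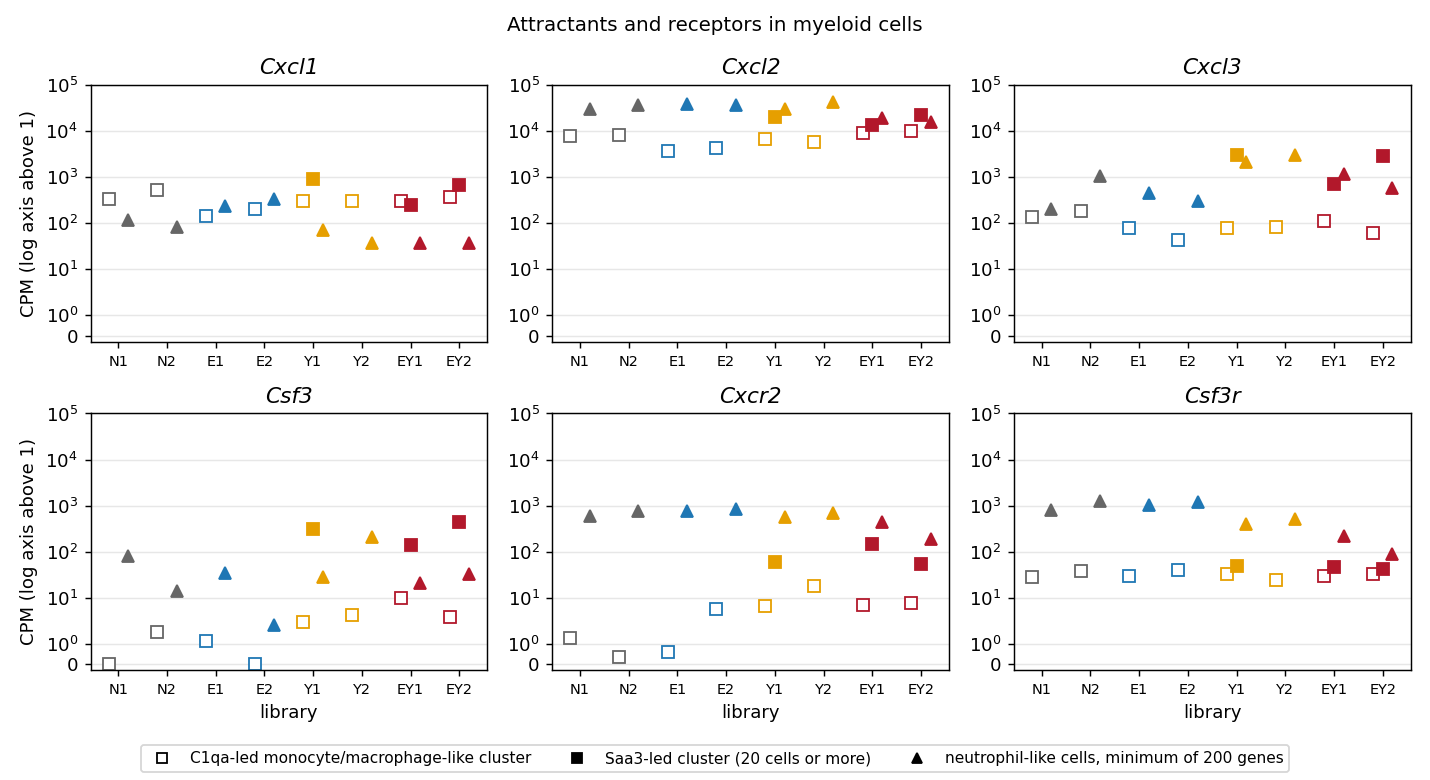
CPM of 6 genes per library in the C1qa-led (open squares) and Saa3-led (filled squares, where 20 or more cells) clusters of monocyte- or macrophage-like cells and in neutrophil-like cells kept at a minimum of 200 genes (triangles), on an axis that is logarithmic above 1. Csf3 and Cxcl3 are far higher in the Saa3-led than in the C1qa-led cluster of the same library, and the Csf3r triangles fall from N and E through Y to EY.

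Neutrophils carry little RNA, and a minimum of 1000 genes per cell left 1 neutrophil-like cell in N1 and in E1. They were therefore compared at a minimum of 200 genes, with 66 and 329 cells in N, 155 and 116 in E, 459 and 64 in Y, and 808 and 415 in EY. Csf3r fell in EY. It stood at 822 and 1229 CPM in N, 1010 and 1199 in E, 391 and 509 in Y, and 218 and 88.2 in EY. There was no overlap between N and E, Y, and EY, but the share of all genes so separated was not counted. The log2 fold change of EY over N was -2.12 ± 0.46 (adjusted p = 0.0143), in a comparison that called 10.9% of the 4783 genes tested (5.04% higher), and the YAP transgene effect was -1.53 ± 0.40 (adjusted p = 0.0228, where 15.6% were called and 7.51% were higher). EY also lay below E (-2.27 ± 0.46, adjusted p = 0.0086, where 11.8% were called and 5.06% were higher), while Y against N called no member (0.314% of genes called, 0.293% higher; 1 member, Cxcl3, at an unadjusted p under 0.05).

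Cxcr2, the chemokine receptor, was steadier, at 594 and 751 CPM in N, 761 and 841 in E, 560 and 675 in Y, and 451 and 193 in EY. EY2 was lowest, and the fold over N was -0.44 ± 0.42 (adjusted p = 0.524). Neutrophil-like cells were themselves rich in Cxcl2, at 30658 and 36828 CPM in N, 39225 and 36133 in E, 30442 and 42495 in Y, and 19631 and 15668 in EY, where both EY libraries were lowest but EY against N did not pass (-0.27 ± 0.36 on TMM-scaled sums, adjusted p = 0.663).

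Cxcl3 in neutrophil-like cells stood at 198 and 1032 CPM in N, 462 and 296 in E, 2127 and 3061 in Y, and 1168 and 580 in EY. The YAP transgene effect was 2.11 ± 0.47 (adjusted p = 0.0117), and EY against N was not called (1.07 ± 0.62, adjusted p = 0.28). Cxcl1, at 119 and 83.1 CPM in N, 231 and 330 in E, 72.7 and 37.5 in Y, and 37.9 and 37.2 in EY, was lower with the YAP transgene (-1.39 ± 0.42, adjusted p = 0.0447). The count of 3 calls for the YAP transgene effect was 1 when E1, E2 or EY1 was left out, and the Csf3r call in EY against N was lost without EY2.

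The neutrophil-like cells of the genotypes were of different kinds. Those of N and E fell almost wholly (97.6 to 100%) into a cluster led by Acod1, Hdc, Csf3r and G0s2. Those of Y and EY fell mostly (78.1 to 99.8%) into a cluster led by Retnlg, the granule gene Ngp and the alarmin genes S100a9 and S100a8. Where both were present Csf3r was higher in the former, at 821 against 378 CPM in Y1, 849 against 463 in Y2 and 591 against 217 in EY1, although with 13 to 33 cells each. Csf3r leads the first cluster, and the lower Csf3r of EY thus cannot be told apart from the shift between clusters. Within the Retnlg-led cluster it stood at 378 and 463 CPM in Y and 217 and 88.2 in EY.

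**Figure D5:**
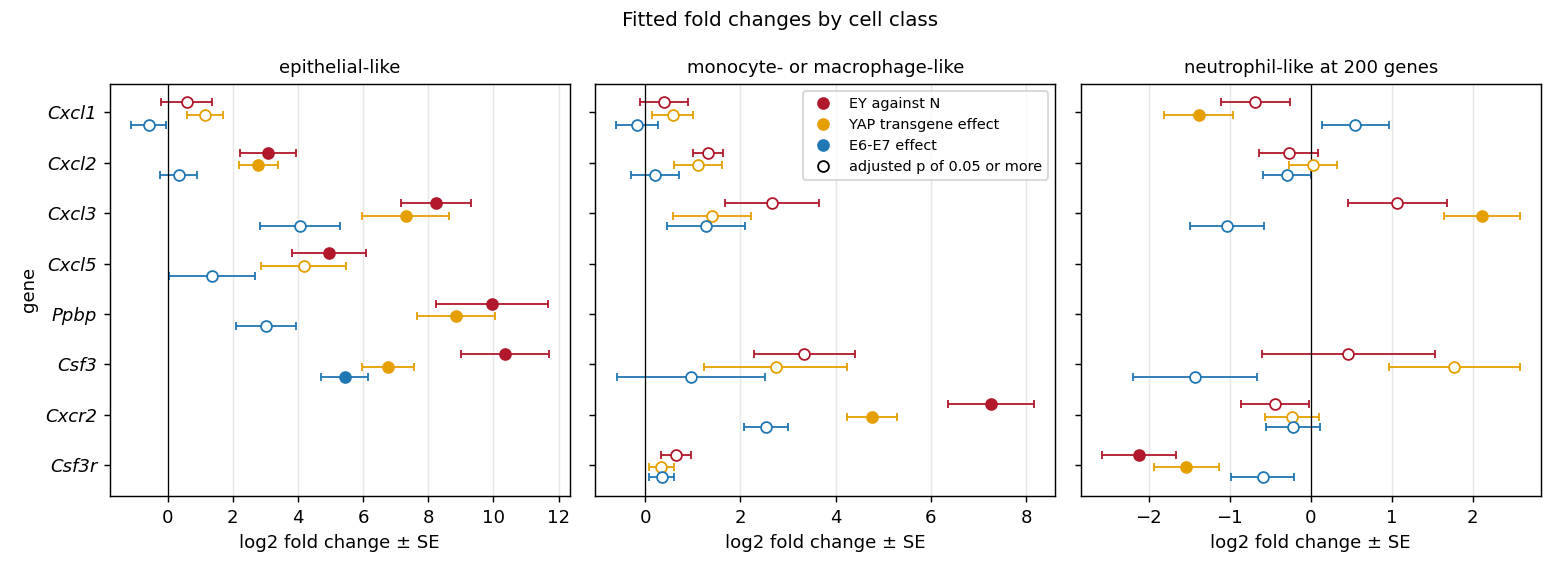
Log2 fold change with its SE for EY against N, the YAP transgene effect and the E6-E7 effect in 3 cell classes (panels, each with its own scale); filled points have an adjusted p under 0.05 by edgeR and a gene without a point did not pass the filter on low counts. The filled points of epithelial-like cells lie to the right of 0, Cxcr2 is the filled gene of monocyte- or macrophage-like cells, and in neutrophil-like cells the filled points of Csf3r and Cxcl1 lie to the left of 0 and that of Cxcl3 to the right.

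Other genes of neutrophil recruitment were followed with a list of 34 (interleukins, receptors, leukotriene enzymes and NF-kappaB feedback genes). Of the 22 tested in epithelial-like cells, EY against N called 1 higher and 2 lower, where 25.3% of all genes were called, so the list was not called more often than genes at large; its median was 0.49. Il17rc, a subunit of the IL-17 receptor, rose by 0.81 ± 0.21 (adjusted p = 0.0296). Ackr3, a scavenging chemokine receptor, fell by 2.94 on the log2 scale (adjusted p = 0.0065), and Zfp36, whose product destabilizes chemokine and TNF mRNA, fell by 2.14 (adjusted p = 0.0191).

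For the YAP transgene effect 5 of the 22 rose and 2 fell, with a list median of 0.54, where 14.5% of all genes were called and 7.89% were higher. The rises with the largest folds were Il23a (3.41 ± 0.93, adjusted p = 0.0424), Csf2rb, the shared receptor chain of GM-CSF and IL-3 (2.95 ± 0.75, adjusted p = 0.0341), Tnf (1.49 ± 0.37, adjusted p = 0.0315) and Il1r1, the IL-1 receptor (1.43 ± 0.20, adjusted p = 0.0039), while Ackr3 (-1.82 ± 0.43, adjusted p = 0.0278) and Zfp36 (-1.38 ± 0.34, adjusted p = 0.0326) fell. Il23a and Csf2rb rested on few UMIs, were at 0 in EY1 and passed the filter through libraries with the YAP transgene. Il23a gave 300 UMIs in Y1 (13.4 CPM), 29 in Y2 and 94 in EY2, and Csf2rb gave 27, 15 and 16. No N or E library held more than 25 and 6, and no comparison with T-cell-like cells was made for these genes. In monocyte- or macrophage-like cells 7 of 26 rose and none fell in EY against N, with a list median of 1.13, where 3.6% of all genes were called and 2.4% were higher, and the YAP transgene effect called Il23a (2.76 ± 0.38, adjusted p = 0.0321) and Csf2rb (1.49 ± 0.15, adjusted p = 0.0211), both higher, where 0.629% of all genes were called. In neutrophil-like cells, where 10.9% of all genes were called, 2 of 23 rose in EY against N, Alox5ap, which serves leukotriene synthesis (3.01 ± 0.44, adjusted p = 0.004), and the leukotriene B4 receptor gene Ltb4r1, and 5 fell, Cxcr4, a receptor that retains neutrophils in the marrow (-4.36 ± 0.82, adjusted p = 0.0075), Csf1, Il23a, Zfp36 and Il1b. The genes named in the myeloid classes were picked after their values were seen.

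The genes whose levels most resembled those of each member were sought over 44 sums of a class in a library, among 9691 genes averaging 5 CPM or more, by Pearson's r of log2(CPM + 1). Gland-like cells were not among the sums. Cxcl2 ran closest to Cd14 (r = 0.978), Il1b (0.968) and Ptafr (0.958), and Csf3r to Trpm2 (0.95), Trem3 and Fpr1. Cxcr2 followed Mirt2 (0.934), Hdc and F5. Cxcl3 and Csf3 both ran closest to Thbs1 (0.905 and 0.839), and Cxcl1 to Il1rn (0.881). Cxcl5 and Ppbp had no close partner, with highest values of 0.625 for Defb1 and 0.637 for Mal. Among the members themselves the closest were Cxcr2 and Csf3r (0.881) and the loosest Cxcl5 and Csf3r (0.0178). Sums of the same library share its depth and free RNA, and the values are descriptions across cell classes.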

How the data were processed

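The authors deposited 1 count matrix per library, holding UMI counts per gene and cell barcode that Cell Ranger 5.0.0 made on mm10 per the file headers; the labels and the study's methods name different versions of the kit. Here the limits of the study were applied to each cell: 1000 to 5500 genes, no more than 30000 UMIs and up to 7% of UMIs from mitochondria. They were clustered with scanpy 1.11.5 (3000 variable genes without the 8 genes, 30 components, 50 neighbours, Leiden resolution 0.3), first all cells and then the epithelial and immune branches, and a cluster was named "X-like" from marker lists or left unnamed. Doublets were not removed: Scrublet called 0.933% of cells, and 0.014% of E1, where it did not work. Libraries shared 2 to 19 barcodes per pair.

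Counts were summed per class and library (20 or more cells) and tested over all genes that passed filterByExpr, with TMM scaling, by edgeR 4.0.16 quasi-likelihood tests in R 4.3.3, Benjamini-Hochberg adjusted at 0.05. All 4 groups shared 1 fit. The YAP transgene and E6-E7 effects came from an additive fit, and the SE is the log2 fold change divided by the root of F. The tests were checked on simulated data. Neutrophil-like cells were tested at a minimum of 200 genes, because the limit of 1000 left too few. Shares of cells used cells thinned to 2000 UMIs. Intervals cover counting error only, and floors cover only that of the lower group. P-values measure the spread between 2 libraries per group, which depths of 46483469 to 102427359 UMIs do not reduce. Alternatives were DESeq2 1.42.0, its size factors, other cell filters, single-marker gates, resolution 1.0, other class limits and leaving out each library; adding the unnamed epithelial clusters alone was chosen after seeing the data. The 8 genes, the list of 34 others and the marker lists were chosen with earlier results of these data known. All 8 genes were named in every comparison, of the list the 6 called genes with the largest folds in epithelial-like cells, and for each of the 8 the 3 genes most like it, of which some are printed.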

Additional observations from a re-analysis of the deposited data

How the results depend on the processing

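No paired analysis was possible because the labels give animal numbers, not replicate numbers shared between groups, and numbers were set in accession order. Among counts of genes called, 163 of the alternatives' values stayed within 1.5 times the value reported, 21 were higher and 29 lower. The shares of all genes called under the alternatives are not given here. The counts of members below therefore cannot be set against a background and are a description of how the calls moved. In epithelial-like cells EY against N called 5, and 1 with gland-like and unnamed clusters added, 2 with single-marker gates and 0 to 5 when a library was left out. Y against N called 0, and 6 with no filter on low counts, 3 with no upper limits on genes and UMIs and 1 with gates, while E against N called 0, and 2 and 1 with no filter and with gates. The YAP transgene effect called 4, and 0 with gland-like and unnamed clusters added, 1 with gates and 2 to 5 with a library left out. The E6-E7 effect called 1, and 0 at resolution 1.0, with gland-like and unnamed clusters added, at 200 genes, with no upper limits and with gates, 5 with no filter, and 0 to 1 with a library left out. The interaction called 0, and 1 by DESeq2, 2 with no filter, 1 with gates, and 0 to 1 with a library left out. In monocyte- or macrophage-like cells EY against N called 1, and 2 by DESeq2, at resolution 1.0, at 200 genes and with no upper limits, 6 with no filter, and 0 to 1 with a library left out; the YAP transgene effect called 1, and 5 with no filter, 0 with gates, and 0 to 2 with a library left out; the E6-E7 effect called 0, and 1 by DESeq2 and 3 with no filter. In neutrophil-like cells EY against N called 1, and 0 to 1 with a library left out, and the YAP transgene effect called 3, and 1 to 3. The tests of cell shares passed for 0 genes after correction, and for 5 with no upper limits. The causes were not tested.

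Of single values 51 changed sign. In epithelial-like cells with gland-like and unnamed clusters added, EY against N was -0.63 for Cxcl5 and -2.59 for Ppbp, Y against N -3.25 for Cxcl3, -4.73 for Cxcl5 and -5.63 for Ppbp, E against N -5.94 for Ppbp and -0.36 for Csf3, the YAP transgene effect -0.026 for Cxcl3, -0.57 for Cxcl5 and -1.40 for Ppbp, and the E6-E7 effect -0.11 for Cxcl5 and -1.43 for Ppbp. With gates, Y against N was -1.95 for Cxcl3, -6.84 for Cxcl5 and -2.92 for Ppbp, and E against N 0.047 for Cxcl2, -7.07 for Ppbp and -0.77 for Csf3. E against N was also 0.28 for Cxcl2 at 200 genes, 0.59 for Cxcl2 and 0.31 for Cxcl3 with unnamed clusters added, and -0.41 by DESeq2 and -3.53 with no upper limits for Ppbp, and the E6-E7 effect with no upper limits was -0.20 for Cxcl2 and -0.30 for Ppbp. With a library left out, the epithelial-like ranges that crossed 0 were -0.19 to 1.41 for Cxcl1 in EY against N, -0.33 to 1.56 for Cxcl1 and -2.14 to 3.84 for Cxcl5 in Y against N (negative without Y1), -0.83 to 0.31 for Cxcl2 and -2.15 to 2.96 for Ppbp in E against N, and -0.16 to 0.75 for Cxcl2 in the E6-E7 effect. In monocyte- or macrophage-like cells they were -0.17 to 0.96 for Cxcl1 in EY against N, and -0.53 to 0.19 for Cxcl1, -0.23 to 0.64 for Cxcl2 and -0.39 to 3.28 for Csf3 in the E6-E7 effect. In neutrophil-like cells they were -0.77 to 1.503 for Csf3 and -1.06 to 0.084 for Cxcr2 in EY against N, and -0.17 to 0.24 for Cxcl2 and -0.42 to 0.12 for Cxcr2 in the YAP transgene effect. The difference in the share of epithelial-like cells with a Cxcr2 UMI was -0.031 percentage points at resolution 1.0, -0.0013 at 200 genes and -0.0072 thinned to 1000 UMIs. At resolution 1.0 Csf3 gave no value in epithelial-like cells.

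The limits are the 2 libraries per group, the 159 epithelial-like cells of EY1 and the Cxcl2 found in T-cell-like cells.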
